A study of Oryza sativa with 18 samples.

Results

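A group of 8 genes of nitrogen assimilation and ammonium transport was followed in rice flag leaves: the ammonium transporter AMT3-2 (Os03g0838400), the ammonium transporter AMT1-1 (Os04g0509600), the nitrate reductase OsNR1 (Os08g0468100), the cytosolic glutamine synthetase OsGS1 (Os02g0735200), the chloroplast glutamine synthetase GS2 (Os04g0659100), the ferredoxin-dependent glutamate synthase Fd-GOGAT (Os07g0658400), the NADH-dependent glutamate synthase NADH-GOGAT1 (Os01g0681900) and the asparagine synthetase ASN1 (Os03g0291500). They were chosen by gene ID, as 8 of 38993 genes listed, and all 8 were among the 22590 genes tested. The deposited file calls AMT3-2 AMT3, AMT1-1 AMT1, GS2 OsGLN2, Fd-GOGAT OsGLU and NADH-GOGAT1 OsGLT1. The leaves came from 3 genotypes of field-grown rice at grain filling: the hybrid Hanyou73 and its 2 parents, Hanhui3 and Huhan7B. Each genotype was sampled after irrigation had been withheld from early grain filling (drought) and with irrigation kept up (water), which gives 6 groups of 3 libraries, 18 in all. Each library is a pool of flag leaves of several plants that shared a plot, so the error given here is the spread between such pools, and a difference between plots cannot be told apart from one between groups.

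Plants take up nitrogen mainly as nitrate and ammonium. Nitrate reductase turns nitrate into nitrite, nitrite reductase turns nitrite into ammonium, and glutamine synthetase joins ammonium to glutamate to give glutamine. Glutamate synthase then returns the nitrogen of glutamine to glutamate, and asparagine synthetase makes asparagine, a form in which nitrogen is transported and stored. In leaves the chloroplast enzymes GS2 and Fd-GOGAT also take back the ammonium freed by photorespiration, whereas cytosolic glutamine synthetase makes glutamine for export, a route used when an ageing leaf sends its nitrogen to the grain.

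Levels are FPKM, the fragments of a gene per length of transcript and per size of the library, so that they can be compared between genes. Sums per library lay between 958893 and 1140989 FPKM, 19088 to 21021 genes reached an FPKM of 1, and the steps between low values gave an estimated 13.1 to 16.6 M fragments per library. By the same estimate AMT3-2 rested on 12 to 7271 fragments per library, AMT1-1 on 212 to 514, OsNR1 on 869 to 2872, OsGS1 on 942 to 4532, GS2 on 4267 to 28371, Fd-GOGAT on 18728 to 45891, NADH-GOGAT1 on 488 to 1893 and ASN1 on 0 to 177. Differences are given as log2 differences of FPKM + 1 with the SE of a limma fit across all tested genes, and a gene is called changed where its Benjamini-Hochberg adjusted p is under 0.05. Folds are ratios of mean FPKM, and errors of levels are SD over 3 libraries.

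The libraries of the groups also differed in leaf markers. Summed FPKM of 13 chlorophyll a/b binding protein genes was 7516 to 7807 in droughted and 12840 to 13760 in watered Hanyou73, against 46350 to 47440 in droughted and 49730 to 56220 in watered Hanhui3 and 50010 to 56060 in droughted and 39250 to 39920 in watered Huhan7B. Summed FPKM of 6 Rubisco small subunit genes was lowest in watered Hanyou73, at 2406 to 2555, against 6156 to 25180 over the other 5 groups. Summed FPKM of 5 leaf senescence genes was highest in watered Hanyou73, at 1579 to 1620, against 311.9 to 886.7 over the other groups. Among these, the chlorophyll breakdown gene SGR averaged 73.5 ± 2.8 FPKM in droughted and 544.7 ± 11.3 FPKM in watered Hanyou73, 5.34 ± 0.91 FPKM in droughted and 3.02 ± 1.01 FPKM in watered Hanhui3, and 109 ± 5 FPKM in droughted and 46.4 ± 1.7 FPKM in watered Huhan7B (SD, n = 3 each). NYC1 and OsPAO also had their highest mean in watered Hanyou73. NOL did not, with 37 FPKM there against 60, 39 and 57 FPKM in droughted Hanyou73, Hanhui3 and Huhan7B. The NAC gene Os03g0327800 averaged 96 FPKM in watered Hanyou73 and 89 FPKM in watered Huhan7B. Under drought, 1 of the 5 rose in Hanyou73 (NOL) and 4 fell. In each parent the count was reversed, with 4 called higher and 1, the NAC gene, called lower. Over all tested genes 45% rose and 25.7% fell in Hanyou73. The shares were 35.1% and 18.4% in Hanhui3, and 21.2% and 32.1% in Huhan7B. Of the other sources looked for, 3 secondary-wall cellulose synthases summed to 36.6 to 37.9 FPKM in droughted Hanyou73 and 0.29 to 1.34 FPKM over the other groups, with CESA7 and BC6 listed at 0 in all 6 Huhan7B libraries. Summed FPKM of 27 histone genes was 3661 to 3702 in droughted and 3068 to 3244 in watered Hanyou73, 2819 to 2846 in droughted and 2150 to 2327 in watered Hanhui3, and 3271 to 3293 in droughted and 4656 to 4851 in watered Huhan7B. Of 41 grain storage protein genes, 21 to 36 were listed at 0 in all libraries of a group, and their sum stayed between 25.0 and 37.6 FPKM. The part of these marker differences in the results on the 8 genes was not tested, and in whole leaves a change in the share of a cell type and a change of RNA per cell cannot be told apart.

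**Figure D1:**
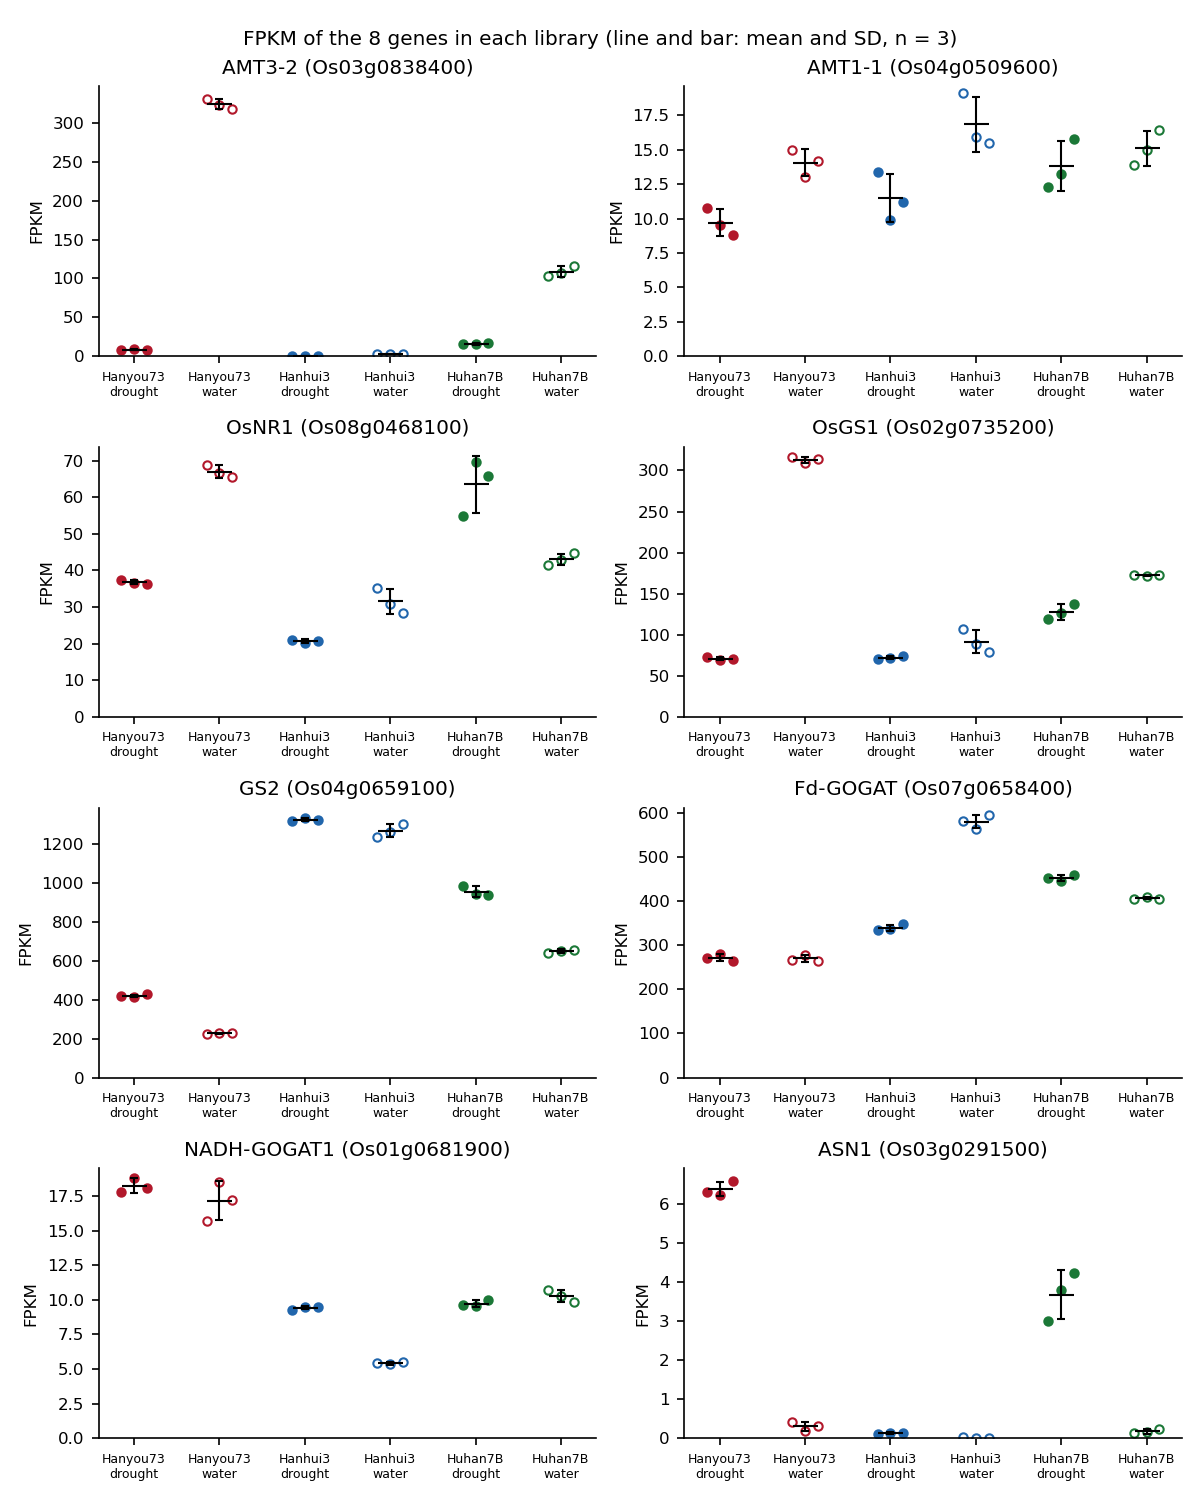
FPKM (linear axes from 0, 1 scale per gene) of the 8 genes in each of the 18 libraries. Filled points are droughted and open points watered libraries, horizontal lines are means and bars SD of 3 libraries (not drawn for ASN1 in watered Hanhui3, where 2 libraries are listed at 0). AMT3-2 and OsGS1 stand highest in watered Hanyou73, GS2 stands lowest there, and ASN1 stands above 3 FPKM only in droughted Hanyou73 and Huhan7B.

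Under drought, 4 of the 8 genes fell in Hanyou73 (AMT3-2, AMT1-1, OsGS1 and OsNR1), where 25.7% of all tested genes fell, and 2 rose (GS2 and ASN1), where 45% of all genes rose. In Hanhui3, 5 fell (AMT3-2, AMT1-1, OsGS1, OsNR1 and Fd-GOGAT) and 1 rose (NADH-GOGAT1), against 18.4% of all genes lower and 35.1% higher. In Huhan7B, 2 fell (AMT3-2 and OsGS1) and 4 rose (GS2, Fd-GOGAT, OsNR1 and ASN1), against 32.1% lower and 21.2% higher. Changes past 2-fold on the log2 scale used were called for 3 of the 8 in Hanyou73 (AMT3-2, OsGS1 and ASN1), where 20.3% of all genes passed, for AMT3-2 alone in Hanhui3, against 7.13%, and for AMT3-2 and ASN1 in Huhan7B, against 7.44%. The median log2 difference of the 8 was -0.24 in Hanyou73, -0.43 in Hanhui3 and 0.04 in Huhan7B, where that of all tested genes was 0.17, 0.10 and -0.07. AMT3-2 and OsGS1 were the genes of the 8 called lower in all 3 genotypes, and none was called higher in all 3. Scaling the libraries by their median ratio, in place of the authors' FPKM totals, moved the median of all genes by -0.15 in Hanyou73, -0.10 in Hanhui3 and 0.07 in Huhan7B, so log2 differences of that size and under are not settled.

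**Figure D2:**
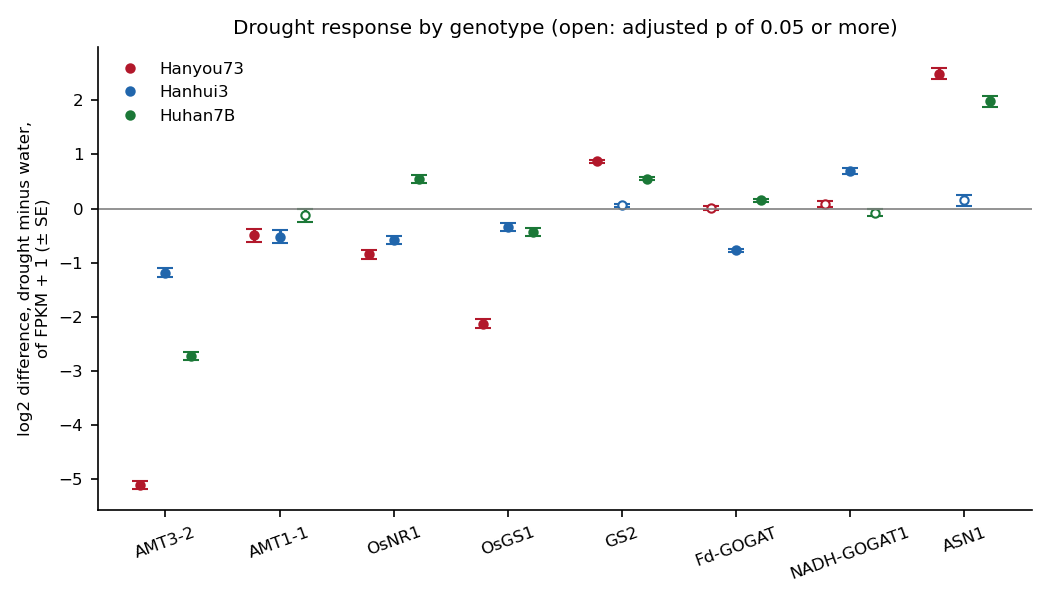
Log2 difference of FPKM + 1, droughted minus watered libraries (y axis, bars are SE), for the 8 genes in Hanyou73, Hanhui3 and Huhan7B. Filled points are called at an adjusted p under 0.05 and open points are not. AMT3-2 reaches -5.11 in Hanyou73, OsNR1 lies below 0 in Hanyou73 and Hanhui3 and above 0 in Huhan7B, and ASN1 lies above 1.9 in Hanyou73 and Huhan7B.

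AMT3-2, an ammonium transporter of the AMT2-like family, fell under drought in all 3 genotypes, and its levels lay far apart between the genotypes. It had 8.05, 8.78 and 8.42 FPKM in droughted Hanyou73 and 331, 324 and 318 FPKM in watered Hanyou73. In Hanhui3 it had 0.71, 0.54 and 0.62 FPKM under drought and 3.15, 2.27 and 2.67 FPKM in water, and in Huhan7B 15.4, 15.0 and 16.4 FPKM under drought and 103, 107 and 116 FPKM in water. No groups overlapped, and the order of the groups was watered Hanyou73, watered Huhan7B, droughted Huhan7B, droughted Hanyou73, watered Hanhui3 and droughted Hanhui3. Mean FPKM was 38.5-fold lower under drought in Hanyou73 (log2 difference -5.11 ± 0.08 SE, adjusted p = 5.2e-17). It was 4.33-fold lower in Hanhui3 (log2 difference -1.18 ± 0.08, adjusted p = 4.1e-09) and 6.98-fold lower in Huhan7B (log2 difference -2.72 ± 0.08, adjusted p = 2.0e-13). The fall in Hanyou73 was larger than in each parent, by -3.93 ± 0.11 log2 against Hanhui3 (adjusted p = 2.6e-13) and by -2.38 ± 0.11 log2 against Huhan7B (adjusted p = 5.3e-11). The response of Hanhui3 minus that of Huhan7B was 1.54 ± 0.11 log2 (adjusted p = 1.3e-08). At the low FPKM of Hanhui3 the pseudocount of 1 makes the log2 difference understate the fold: with pseudocounts of 0.1 and 5 its drought response was -1.95 and -0.45, and the response of Hanhui3 minus that of Huhan7B was 0.85 with a pseudocount of 0.1, all still called.

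In water AMT3-2 was 2.98-fold higher in Hanyou73 than in Huhan7B, the higher parent (log2 difference 1.57 ± 0.08, adjusted p = 3.6e-11), and 120-fold higher than in Hanhui3 (6.47 ± 0.08, adjusted p = 8.9e-19). Under drought it lay between the parents, 1.85-fold lower in Hanyou73 than in Huhan7B (log2 difference -0.82 ± 0.08, adjusted p = 9.3e-08) and 13.5-fold higher than in Hanhui3 (2.54 ± 0.08, adjusted p = 9.1e-14). The parents themselves differed, with AMT3-2 40.3-fold lower in Hanhui3 than in Huhan7B in water and 25.0-fold lower under drought. A neighbouring ID, Os03g0838450, is also annotated as ammonium transporter 3 member 2 and had 0 to 4.4 FPKM, so reads shared between these models could have been split.

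AMT1-1, a transporter that carries ammonium into cells, had levels that overlapped between most groups. It had 10.8, 9.50 and 8.82 FPKM in droughted and 15.0, 13.0 and 14.2 FPKM in watered Hanyou73. In Hanhui3 it had 13.4, 9.92 and 11.2 FPKM under drought and 19.1, 15.9 and 15.5 FPKM in water, and in Huhan7B 12.3, 13.2 and 15.8 FPKM under drought and 13.9, 15.0 and 16.4 FPKM in water. Each group overlapped its neighbour in the order of means, but the droughted and watered libraries did not overlap within Hanyou73 or within Hanhui3. The log2 difference was -0.50 ± 0.12 in Hanyou73 (adjusted p = 0.0012), -0.52 ± 0.12 in Hanhui3 (adjusted p = 0.0014) and -0.13 ± 0.12 in Huhan7B (adjusted p = 0.38). The responses were not shown to differ, at 0.02 ± 0.16 for Hanyou73 minus Hanhui3 (adjusted p = 0.93), -0.37 ± 0.16 for Hanyou73 minus Huhan7B (adjusted p = 0.059) and -0.39 ± 0.16 for Hanhui3 minus Huhan7B (adjusted p = 0.055). With median-ratio scaling the last pair of values became -0.63 (adjusted p = 0.0054) and -0.62 (adjusted p = 0.0073). Against a single parent, AMT1-1 was called once, 1.42-fold lower in droughted Hanyou73 than in droughted Huhan7B (log2 difference -0.47 ± 0.12, adjusted p = 0.0019). With median-ratio scaling this value was -0.78, and Hanyou73 was also called lower than Hanhui3 under drought (-0.48, adjusted p = 0.0025) and in water (-0.47, adjusted p = 0.0027).

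The order of the transporters by FPKM differed between groups. The ratio of AMT3-2 to AMT1-1 within a library was 0.875 ± 0.112 in droughted and 23.1 ± 1.5 in watered Hanyou73, 0.0542 ± 0.0011 in droughted and 0.160 ± 0.016 in watered Hanhui3, and 1.14 ± 0.11 in droughted and 7.21 ± 0.18 in watered Huhan7B (SD, n = 3 each). AMT3-2 was above AMT1-1 in all libraries of watered Hanyou73 and of both Huhan7B groups, and below it in all libraries of the other groups.

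OsNR1, the enzyme that reduces nitrate to nitrite with NADH, moved in opposite directions in the genotypes. It had 37.4, 36.5 and 36.3 FPKM in droughted and 68.8, 66.6 and 65.4 FPKM in watered Hanyou73, and 21.1, 20.1 and 20.7 FPKM in droughted and 35.2, 30.9 and 28.5 FPKM in watered Hanhui3. In Huhan7B it had 54.8, 69.7 and 65.9 FPKM under drought and 41.5, 42.8 and 44.7 FPKM in water. Droughted and watered libraries did not overlap in any genotype, and droughted Huhan7B overlapped watered Hanyou73 at the top of the order. OsNR1 was 1.82-fold lower under drought in Hanyou73 (log2 difference -0.85 ± 0.08, adjusted p = 8.0e-08) and 1.53-fold lower in Hanhui3 (-0.58 ± 0.08, adjusted p = 1.2e-05), and 1.48-fold higher in Huhan7B (0.54 ± 0.08, adjusted p = 2.1e-05). The response of Hanyou73 minus that of Huhan7B was -1.39 ± 0.11 log2 (adjusted p = 3.3e-08) and that of Hanhui3 minus Huhan7B was -1.13 ± 0.11 (adjusted p = 5.0e-07), whereas Hanyou73 minus Hanhui3, at -0.26 ± 0.11, did not pass the test (adjusted p = 0.057). In water Hanyou73 lay above both parents, 2.12-fold above Hanhui3 (log2 difference 1.07 ± 0.08, adjusted p = 3.9e-09) and 1.56-fold above Huhan7B (0.63 ± 0.08, adjusted p = 3.0e-06). Under drought it lay 1.78-fold above Hanhui3 (log2 difference 0.80 ± 0.08, or 0.52 with median-ratio scaling) and 1.73-fold below Huhan7B, and the difference from the mean of the parents, 0.02 ± 0.07 log2, was not called (adjusted p = 0.81), although median-ratio scaling gave -0.29 (adjusted p = 0.0029). Another 3 gene models carry the same nitrate reductase annotation, at 0 to 4.52 FPKM, and 2 of them are listed with equal values in all 18 libraries, so the split of reads among these copies is uncertain.

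The nitrite reductase gene NiR (Os01g0357100), for the next enzyme of the route, is not among the 8. It averaged 23.1 FPKM in droughted and 63.8 FPKM in watered Hanyou73 (log2 difference -1.43, adjusted p = 3.2e-08), 35.3 FPKM in droughted and 109 FPKM in watered Hanhui3 (-1.59, adjusted p = 3.1e-08) and 73.4 FPKM in droughted and 49.6 FPKM in watered Huhan7B (0.55, adjusted p = 0.0012). Another 3 tested models carry a nitrite reductase annotation, and they are described with the wider list.

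OsGS1, the main cytosolic glutamine synthetase of rice leaves, fell under drought in all 3 genotypes and most in Hanyou73. It had 73.1, 69.7 and 70.1 FPKM in droughted and 316, 309 and 314 FPKM in watered Hanyou73. In Hanhui3 it had 70.3, 71.1 and 73.8 FPKM under drought and 106, 88.5 and 79.1 FPKM in water, and in Huhan7B 119, 127 and 137 FPKM under drought and 172, 172 and 173 FPKM in water. Drought and water did not overlap in any genotype, while droughted Hanyou73 and droughted Hanhui3 overlapped at the bottom of the order. Mean FPKM was 4.41-fold lower under drought in Hanyou73 (log2 difference -2.12 ± 0.08, adjusted p = 8.6e-13). It was 1.27-fold lower in Hanhui3 (-0.33 ± 0.08, adjusted p = 0.0016) and 1.35-fold lower in Huhan7B (-0.43 ± 0.08, adjusted p = 0.00016). With only the Hanhui3 libraries in the fit, the same log2 difference of -0.33 had an adjusted p of 0.054, and without Hanhui3 water replicate 1 it was -0.22 (adjusted p = 0.0034). The response of Hanyou73 was more negative than that of Hanhui3 by -1.79 ± 0.11 log2 (adjusted p = 1.6e-09) and than that of Huhan7B by -1.69 ± 0.11 (adjusted p = 2.9e-09), and the parents' responses were not shown to differ (0.10 ± 0.11, adjusted p = 0.46).

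In water OsGS1 was 3.42-fold higher in Hanyou73 than in Hanhui3 (log2 difference 1.77 ± 0.08, adjusted p = 5.1e-12) and 1.81-fold higher than in Huhan7B (0.85 ± 0.08, adjusted p = 6.5e-08). Under drought Hanyou73 was not shown to differ from Hanhui3 (-0.02 ± 0.08, adjusted p = 0.87) and was 1.80-fold lower than Huhan7B (-0.84 ± 0.08, adjusted p = 7.3e-08). Median-ratio scaling gave -0.30 against Hanhui3 (adjusted p = 0.0056).

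GS2, the chloroplast isoform, was the member with the highest FPKM in 5 of the 6 groups and was far lower in the hybrid than in either parent. It had 416, 414 and 426 FPKM in droughted and 226, 230 and 226 FPKM in watered Hanyou73. Levels in Hanhui3 were 1318, 1330 and 1321 FPKM under drought and 1235, 1262 and 1301 FPKM in water, and in Huhan7B 984, 939 and 937 FPKM under drought and 641, 650 and 656 FPKM in water. No groups overlapped, with both Hanhui3 groups highest and both Hanyou73 groups lowest. GS2 was 1.84-fold higher under drought in Hanyou73 (log2 difference 0.88 ± 0.03, adjusted p = 1.2e-13) and 1.47-fold higher in Huhan7B (0.55 ± 0.03, adjusted p = 9.6e-11). In Hanhui3 the log2 difference was 0.06 ± 0.03 (adjusted p = 0.056), and with median-ratio scaling it was -0.06 (adjusted p = 0.028). The response of Hanyou73 minus that of Hanhui3 was 0.81 ± 0.04 log2 (adjusted p = 8.1e-11). Against Huhan7B it was 0.33 ± 0.04 (adjusted p = 2.5e-06), which became 0.03 with median-ratio scaling (adjusted p = 0.40), so that this call rests on the scaling.

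In water GS2 was 5.57-fold lower in Hanyou73 than in Hanhui3 (log2 difference -2.47 ± 0.03, adjusted p = 3.9e-19) and 2.85-fold lower than in Huhan7B (-1.51 ± 0.03, adjusted p = 1.5e-16). Under drought it was 3.16-fold lower than in Hanhui3 (-1.66 ± 0.03, adjusted p = 6.8e-17) and 2.28-fold lower than in Huhan7B (-1.18 ± 0.03, adjusted p = 3.3e-15). The summed chlorophyll a/b binding protein FPKM given above was also lower in both Hanyou73 groups than in every parental group, and its part in this difference was not tested.

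The balance of the isoforms within a library showed the hybrid's water group apart from all others. GS2 over OsGS1 was 5.91 ± 0.19 in droughted and 0.727 ± 0.017 in watered Hanyou73, 18.5 ± 0.5 in droughted and 14.1 ± 2.4 in watered Hanhui3, and 7.50 ± 0.73 in droughted and 3.76 ± 0.04 in watered Huhan7B (SD, n = 3 each). OsGS1 exceeded GS2 in the 3 watered Hanyou73 libraries and in no other library. The ratio was higher under drought than in water in each genotype, with no overlap between the groups. It needs no scaling between libraries, and it was not put to a test.

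**Figure D3:**
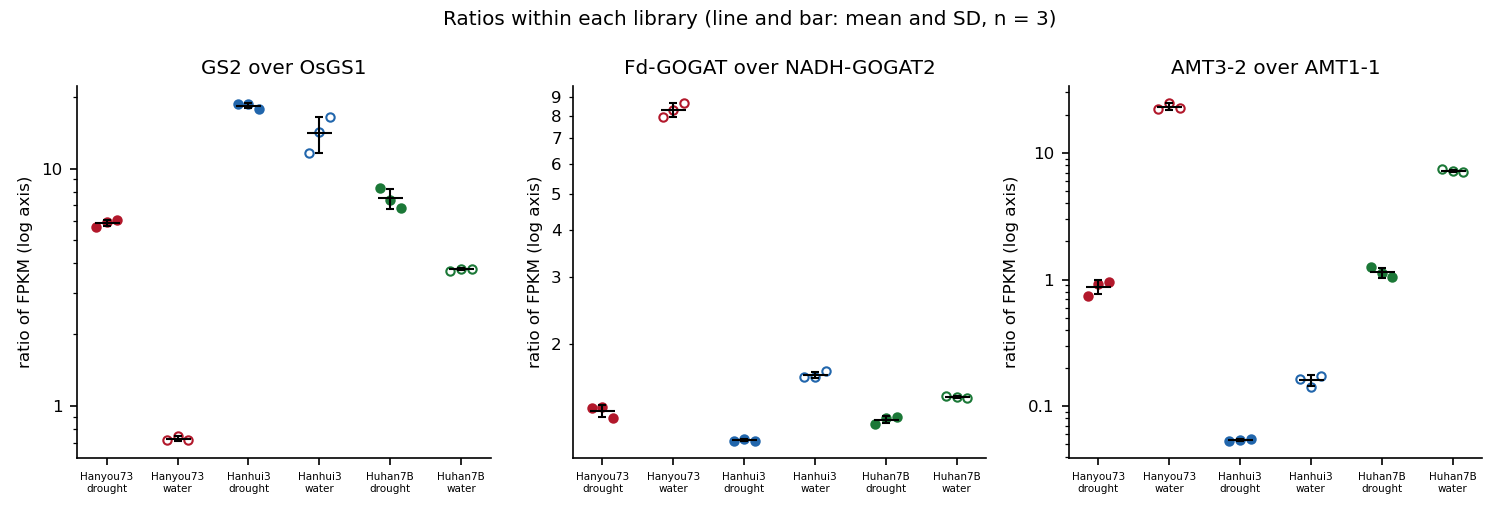
Ratios of FPKM between gene pairs within each of the 18 libraries (log axes; filled points droughted, open points watered, lines means and bars SD of 3 libraries). GS2 over OsGS1 is below 1 in watered Hanyou73 alone, Fd-GOGAT over NADH-GOGAT2 is 7.96 to 8.68 in watered Hanyou73 and 1.11 to 1.69 in the other groups, and AMT3-2 over AMT1-1 spans 0.053 to 24.8.

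Fd-GOGAT, the chloroplast glutamate synthase that draws on ferredoxin, was lower under drought in Hanhui3, slightly higher in Huhan7B and not called in Hanyou73. It had 271, 279 and 265 FPKM in droughted and 266, 278 and 265 FPKM in watered Hanyou73. Hanhui3 had 335, 336 and 347 FPKM under drought and 581, 564 and 594 FPKM in water, and in Huhan7B 452, 446 and 458 FPKM under drought and 405, 409 and 404 FPKM in water. The 2 Hanyou73 groups overlapped and lay below all parental libraries, and no other groups overlapped. In Hanhui3 it was 1.71-fold lower (log2 difference -0.77 ± 0.03, adjusted p = 1.3e-11) and in Huhan7B 1.11-fold higher (0.15 ± 0.03, adjusted p = 0.00036). In Hanyou73 the log2 difference was 0.01 ± 0.03 (adjusted p = 0.77), and -0.17 with median-ratio scaling (adjusted p = 0.00012). The response of Hanhui3 minus that of Huhan7B was -0.92 ± 0.04 log2 (adjusted p = 1.2e-10), that of Hanyou73 minus Hanhui3 was 0.78 ± 0.04 (adjusted p = 4.0e-10), and that of Hanyou73 minus Huhan7B was -0.14 ± 0.04 (adjusted p = 0.0072). Median-ratio scaling moved the last value to -0.43 and the drought response of Huhan7B to 0.27, and the response of Hanyou73 minus the parental mean, 0.32 ± 0.04, to 0.15, all still called. Against the parents Fd-GOGAT was 2.15-fold lower in watered Hanyou73 than in watered Hanhui3 and 1.51-fold lower than in watered Huhan7B. Under drought it was 1.25-fold lower than in Hanhui3 (log2 difference -0.32 ± 0.03, adjusted p = 9.4e-08) and 1.66-fold lower than in Huhan7B (-0.73 ± 0.03, adjusted p = 3.6e-12), and scaling by the median ratio moved the value against droughted Hanhui3 to -0.61.

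NADH-GOGAT1, known in rice for its role in young and growing tissue, was higher in the hybrid than in both parents whatever the water supply. It had 17.8, 18.8 and 18.1 FPKM in droughted and 15.7, 18.5 and 17.2 FPKM in watered Hanyou73. Hanhui3 had 9.29, 9.46 and 9.50 FPKM under drought and 5.42, 5.33 and 5.54 FPKM in water, and in Huhan7B 9.60, 9.54 and 10.0 FPKM under drought and 10.7, 10.3 and 9.83 FPKM in water. The Hanyou73 groups overlapped each other and no parental library. Under drought NADH-GOGAT1 was 1.73-fold higher in Hanhui3 (log2 difference 0.70 ± 0.06, adjusted p = 8.0e-08) and was not called in Hanyou73 (0.09 ± 0.06, adjusted p = 0.19) or in Huhan7B (-0.07 ± 0.06, adjusted p = 0.31). The response of Hanhui3 exceeded that of Huhan7B by 0.77 ± 0.08 log2 (adjusted p = 1.4e-06), and that of Hanyou73 minus Hanhui3 was -0.61 ± 0.08 (adjusted p = 1.4e-05). The response of Hanyou73 minus the parental mean, -0.22 ± 0.07 (adjusted p = 0.013), became -0.17 without Hanyou73 water replicate 2 (adjusted p = 0.052) and -0.39 with median-ratio scaling (adjusted p = 0.00023). In water it was 3.16-fold higher in Hanyou73 than in Hanhui3 (log2 difference 1.49 ± 0.06, adjusted p = 1.5e-12) and 1.67-fold higher than in Huhan7B (0.68 ± 0.06, adjusted p = 3.7e-08). Under drought the folds were 1.94 against Hanhui3 and 1.88 against Huhan7B (log2 differences 0.89 ± 0.06 and 0.84 ± 0.06, adjusted p = 1.6e-09 and 2.5e-09), and the value against Huhan7B was 0.52 with median-ratio scaling.

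The other NADH-dependent glutamate synthase, NADH-GOGAT2 (OsGLT2, Os05g0555600), is not among the 8. It averaged 204 ± 3 FPKM in droughted and 32.4 ± 1.7 FPKM in watered Hanyou73, 304 ± 7 FPKM in droughted and 350 ± 5 FPKM in watered Hanhui3, and 358 ± 9 FPKM in droughted and 280 ± 3 FPKM in watered Huhan7B (SD, n = 3 each). Its log2 difference under drought was 2.62 ± 0.03 in Hanyou73 (adjusted p = 1.1e-17), -0.20 in Hanhui3 (adjusted p = 0.00014) and 0.35 in Huhan7B (adjusted p = 3.4e-07). NADH-GOGAT2 over NADH-GOGAT1 was 11.2 ± 0.3 in droughted and 1.90 ± 0.19 in watered Hanyou73, against 32.3 ± 0.6 in droughted and 64.4 ± 1.1 in watered Hanhui3 and 36.8 ± 1.3 in droughted and 27.3 ± 1.4 in watered Huhan7B. The ratio of Fd-GOGAT to NADH-GOGAT2 was 1.33 ± 0.05 in droughted and 8.32 ± 0.36 in watered Hanyou73, against 1.12 ± 0.01 in droughted and 1.66 ± 0.03 in watered Hanhui3 and 1.26 ± 0.03 in droughted and 1.45 ± 0.01 in watered Huhan7B. The ratio of Fd-GOGAT to NADH-GOGAT1 was 14.9 ± 0.3 in droughted and 15.8 ± 1.0 in watered Hanyou73, 36.0 ± 0.5 in droughted and 107 ± 1 in watered Hanhui3, and 46.5 ± 0.7 in droughted and 39.6 ± 1.7 in watered Huhan7B.

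ASN1, which makes asparagine from aspartate and glutamine, was near 0 in all watered libraries and rose under drought in Hanyou73 and Huhan7B. It had 6.33, 6.25 and 6.60 FPKM in droughted and 0.43, 0.20 and 0.31 FPKM in watered Hanyou73, and 3.01, 3.81 and 4.24 FPKM in droughted and 0.13, 0.16 and 0.25 FPKM in watered Huhan7B. In Hanhui3 it had 0.10, 0.14 and 0.14 FPKM under drought, and in water it was listed at 0.03, 0 and 0 FPKM, so no fold is given against that group. Droughted Hanyou73 lay above droughted Huhan7B, and both lay above all other libraries. Only these groups reached the FPKM of 1 that a gene needed in at least 3 libraries to be tested. ASN1 was thus tested through the groups in which it was high, which limits what its calls there can show. The watered groups of Hanyou73 and Huhan7B overlapped, and watered Huhan7B overlapped droughted Hanhui3. Mean FPKM was 20.4-fold higher under drought in Hanyou73 (log2 difference 2.50 ± 0.10, adjusted p = 3.9e-12) and 20.5-fold higher in Huhan7B (1.98 ± 0.10, adjusted p = 1.9e-10), and the log2 differences understate these folds because of the pseudocount. With pseudocounts of 0.1 and 5 the log2 difference was 4.01 and 1.10 in Hanyou73 and 3.77 and 0.74 in Huhan7B, all still called. In Hanhui3 the log2 difference was 0.16 ± 0.10 (adjusted p = 0.20), although its droughted and watered libraries did not overlap. That difference was called with a pseudocount of 0.1 (1.05, adjusted p = 0.0025) and with only the Hanhui3 libraries in the fit (0.16, adjusted p = 0.011). All Hanhui3 values were at 0.14 FPKM or less. The response of Hanhui3 minus that of Huhan7B was -1.82 ± 0.14 log2 (adjusted p = 5.0e-08) and that of Hanyou73 minus Hanhui3 was 2.34 ± 0.14 (adjusted p = 2.1e-09).

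The larger log2 response of ASN1 in Hanyou73 than in Huhan7B, by 0.51 ± 0.14 (adjusted p = 0.0055), did not hold with a pseudocount of 0.1 (0.24, adjusted p = 0.57) or with median-ratio scaling (0.24, adjusted p = 0.17). Under drought ASN1 was 1.73-fold higher in Hanyou73 than in Huhan7B (log2 difference 0.67 ± 0.10, adjusted p = 2.3e-05, or 0.38 with median-ratio scaling, adjusted p = 0.0042). It was 50.5-fold higher than in droughted Hanhui3 (2.71 ± 0.10, adjusted p = 1.4e-12), where it had only 3, 4 and 4 estimated fragments. In water it was called against Hanhui3 (log2 difference 0.38 ± 0.10, adjusted p = 0.0036) and not against Huhan7B (0.15 ± 0.10, adjusted p = 0.20), all at 0.43 FPKM or less. The call against watered Hanhui3 did not hold with a pseudocount of 5 (0.08, adjusted p = 0.084), and the difference from the mean of the parents in water, 0.26 ± 0.09 (adjusted p = 0.014), did not hold with a pseudocount of 5 (0.06, adjusted p = 0.15) or without Hanyou73 water replicate 1 (0.20, adjusted p = 0.089).

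Set against both parents, 4 of the 8 genes lay above both in watered Hanyou73 (AMT3-2, OsGS1, NADH-GOGAT1 and OsNR1), where 26.4% of all tested genes did, and 2 lay below both (GS2 and Fd-GOGAT), where 12.5% did. Under drought 2 lay above both (NADH-GOGAT1 and ASN1), against 39.2% of all genes, and 2 lay below both (GS2 and Fd-GOGAT), against 7.83%. GS2 and Fd-GOGAT were thus below both parents and NADH-GOGAT1 above both parents under either water supply. AMT3-2, OsGS1 and OsNR1 were above both in water and were not under drought. The difference of Hanyou73 from the mean of the parents was called for 7 of the 8 genes in water, against 67.2% of all genes, and for 7 under drought, against 72.7%.

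In water the differences from the mean of the parents were 4.02 ± 0.07 log2 for AMT3-2, 1.32 ± 0.07 for OsGS1, 1.09 ± 0.05 for NADH-GOGAT1, 0.85 ± 0.07 for OsNR1, -0.85 ± 0.03 for Fd-GOGAT and -1.99 ± 0.02 for GS2. Under drought they were 0.86 ± 0.07 for AMT3-2, -0.43 ± 0.07 for OsGS1, 0.86 ± 0.05 for NADH-GOGAT1, -0.53 ± 0.03 for Fd-GOGAT, -1.42 ± 0.02 for GS2, -0.34 ± 0.10 for AMT1-1 and 1.69 ± 0.09 for ASN1. Several of the values under drought depended on the processing while keeping their call and direction. With pseudocounts of 0.1 and 5 the value was 1.34 and 0.32 for AMT3-2 and 2.82 and 0.77 for ASN1, and with median-ratio scaling it was -0.74 for OsGS1, -0.63 for AMT1-1, -0.84 for Fd-GOGAT and 0.57 for NADH-GOGAT1. OsGS1 stood above the mean of the parents in water and below it under drought.

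**Figure D4:**
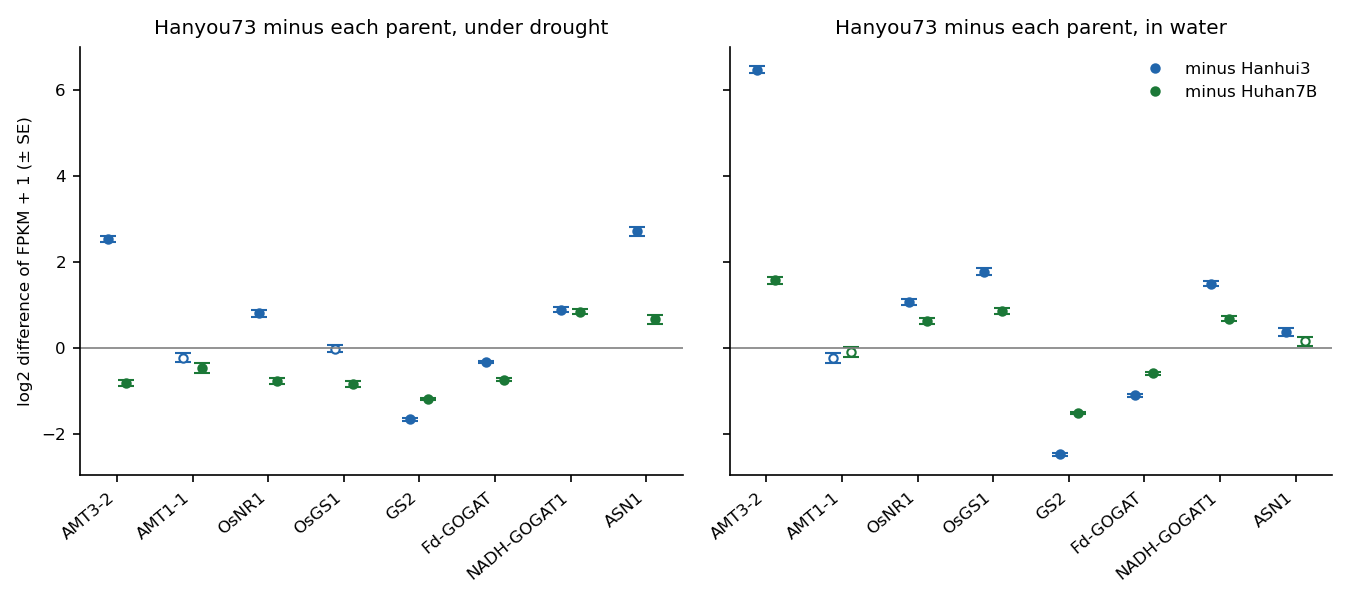
Log2 difference of FPKM + 1 (y axis, bars are SE) between Hanyou73 and each parent for the 8 genes, under drought (left) and in water (right). Filled points are called at an adjusted p under 0.05 and open points are not. In water AMT3-2, OsNR1, OsGS1 and NADH-GOGAT1 lie above 0 against both parents, and GS2 and Fd-GOGAT lie below 0 against both in both panels.

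The parents differed from each other in 6 of the 8 genes in water, against 66.4% of all tested genes, and in 6 under drought, against 58.9%. In Hanhui3, AMT3-2, OsGS1 and OsNR1 were lower than in Huhan7B and GS2 was higher under either water supply. Fd-GOGAT turned round, with 339 ± 7 FPKM in Hanhui3 and 452 ± 6 FPKM in Huhan7B under drought (log2 difference -0.41 ± 0.03, adjusted p = 6.2e-09) and 580 ± 15 FPKM in Hanhui3 and 406 ± 3 FPKM in Huhan7B in water (0.51 ± 0.03, adjusted p = 2.9e-10). NADH-GOGAT1 was 1.89-fold lower in Hanhui3 in water (log2 difference -0.81 ± 0.06, adjusted p = 4.3e-09) and was not shown to differ under drought (-0.04 ± 0.06, adjusted p = 0.57). ASN1 was 29.1-fold lower in Hanhui3 than in Huhan7B under drought (log2 difference -2.05 ± 0.10, adjusted p = 6.8e-11) and was not called in water (-0.22 ± 0.10, adjusted p = 0.063). The fold rests on 3, 4 and 4 estimated fragments of ASN1 in droughted Hanhui3. With a pseudocount of 0.1 the difference in water was called (-1.34, adjusted p = 0.00022). The difference of OsNR1 between the parents in water, -0.44 ± 0.08, was -0.25 with median-ratio scaling.

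The drought response of Hanyou73 differed from the parental mean response for 7 of the 8 genes, AMT1-1 being the exception, where 58.3% of all tested genes differed. It differed from the response of Hanhui3 for 6 of the 8, against 49.7% of all genes, and from that of Huhan7B for 6, against 62.6%. The responses of the parents differed for 6, against 53.3%. These 4 comparisons share libraries. The count against Huhan7B was 5 of 8 with median-ratio scaling and with a pseudocount of 0.1, and a count over 8 genes does not allow any of the 4 to be called particular to them. The largest sizes of Hanyou73 minus the parental mean were -3.16 ± 0.09 log2 for AMT3-2 (adjusted p = 3.7e-13), -1.74 ± 0.09 for OsGS1 (adjusted p = 3.7e-10) and 1.43 ± 0.12 for ASN1 (adjusted p = 1.0e-07).

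The wider list of nitrogen genes, taken by product name, held 82 genes in 9 classes, of which 52 were tested. In Hanyou73 13 of the 52 rose and 24 fell under drought, in Hanhui3 16 rose and 13 fell, and in Huhan7B 13 rose and 17 fell, with median log2 differences of -0.31, 0.05 and -0.05. Without the 8 genes, 11 rose and 20 fell among 44 in Hanyou73, 15 rose and 8 fell in Hanhui3, and 9 rose and 15 fell in Huhan7B. Of all tested genes 45% rose and 25.7% fell in Hanyou73, 35.1% rose and 18.4% fell in Hanhui3, and 21.2% rose and 32.1% fell in Huhan7B. Beside these shares, the counts without the 8 genes were near the background in Hanhui3 and Huhan7B, and in Hanyou73 fewer rose and more fell than over all genes. The counts by class that follow are to be read beside the same shares, and with 10 tested genes or fewer in a class none is called particular to it.

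Among 10 tested ammonium transporters, 1 rose and 7 fell in Hanyou73, while 0 rose and 4 fell in each parent, against 25.7% of all genes lower in Hanyou73, 18.4% in Hanhui3 and 32.1% in Huhan7B. The 1 that rose, Os11g0105350, reached an FPKM of 1 only in droughted Hanyou73, at 1.03 to 1.09. It was thus tested only through the group in which it was higher. The AMT3 member 3 transporter Os02g0550800 averaged 1.01 FPKM in droughted and 6.29 FPKM in watered Hanyou73 (log2 difference -1.85, adjusted p = 6.5e-09) and 1.70 FPKM in droughted and 17.9 FPKM in watered Huhan7B (-2.81, adjusted p = 1.1e-10), and stayed under 1 FPKM on average in Hanhui3 (0.06, adjusted p = 0.76). The AMT1 member 2 transporter Os02g0620600 averaged 1.89 FPKM in droughted and 5.05 FPKM in watered Hanyou73 (-1.07, adjusted p = 1.4e-05) and was not called in either parent. Os03g0838450, the model next to AMT3-2, averaged 0.20 FPKM in droughted and 3.64 FPKM in watered Hanyou73 (-1.96, adjusted p = 6.7e-08). It was also called lower in Huhan7B (-0.91, adjusted p = 0.00041) and not in Hanhui3 (0.02, adjusted p = 0.95). Os03g0838450 reached an FPKM of 1 only in watered libraries of Hanyou73 and Huhan7B, so it too was tested through groups in which it was higher.

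Of 3 glutamine synthetases, the cytosolic isozyme GLN1 (Os03g0223400) had a fall largest in Hanhui3. It averaged 15.4 ± 1.3 FPKM in droughted and 32.8 ± 1.6 FPKM in watered Hanyou73 (log2 difference -1.04, adjusted p = 7.4e-08), 4.93 ± 0.43 FPKM in droughted and 25.0 ± 2.1 FPKM in watered Hanhui3 (-2.13, adjusted p = 6.5e-11), and 7.13 FPKM in droughted and 8.43 FPKM in watered Huhan7B (-0.22, adjusted p = 0.058). Among 4 glutamate synthases 2 rose and 0 fell in Hanyou73, 1 rose and 2 fell in Hanhui3, and 2 rose and 1 fell in Huhan7B. Beside both members and NADH-GOGAT2, this class holds Os07g0676200, annotated as ferredoxin-dependent glutamate synthase 2, which averaged 35.0 FPKM in droughted and 23.3 FPKM in watered Hanyou73 (log2 difference 0.57, adjusted p = 4.4e-06), 33.5 FPKM in droughted and 29.9 FPKM in watered Hanhui3 (0.17, adjusted p = 0.069) and 26.4 FPKM in droughted and 36.6 FPKM in watered Huhan7B (-0.46, adjusted p = 7.2e-05). Of 2 tested glutamate dehydrogenases, which can release ammonium from glutamate, 0 rose and 1 fell in Hanyou73, 2 rose in Hanhui3 and 1 rose in Huhan7B.

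Among 9 tested nitrate and nitrite reductase models, 0 rose and 4 fell in Hanyou73, 1 rose and 4 fell in Hanhui3 (35.1% of all genes higher, 18.4% lower), and 4 rose and 0 fell in Huhan7B (21.2% higher, 32.1% lower). In Hanyou73 45% of all genes were higher and 25.7% lower. Of the 3 tested nitrite reductase models besides NiR, Os01g0357150 had log2 differences of -0.41 in Hanyou73 (adjusted p = 0.016), -1.01 in Hanhui3 (adjusted p = 2.3e-05) and 0.59 in Huhan7B (adjusted p = 0.0025). The other models, at low levels and chosen for mention after their values were seen, were not called lower in Hanyou73 or Hanhui3. Os02g0765900 averaged 5.22 FPKM in droughted and 3.07 FPKM in watered Hanhui3 (0.61, adjusted p = 0.022), with 0.26 in Hanyou73 (adjusted p = 0.27) and 0.47 in Huhan7B (adjusted p = 0.070). Os02g0765925 had log2 differences of 0.25 in Hanyou73 (adjusted p = 0.33), -0.22 in Hanhui3 (adjusted p = 0.44) and 0.58 in Huhan7B (adjusted p = 0.037). The nitrate reductase OsNIA2 (Os08g0468700) averaged 0.22 FPKM in droughted and 3.37 FPKM in watered Hanhui3 (-1.83, adjusted p = 2.3e-07), was listed at 0 in all droughted Hanyou73 libraries, and was not called in Hanyou73 or Huhan7B.

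Among 8 asparagine synthetases and asparaginases, 3 rose and 3 fell in Hanyou73, 2 rose and 0 fell in Hanhui3, and 1 rose and 3 fell in Huhan7B. The asparagine synthetase Os06g0265000 averaged 85.18 FPKM in droughted and 70.15 FPKM in watered Hanyou73 (log2 difference 0.28, adjusted p = 9.5e-06). It averaged 76.15 FPKM in droughted and 50.65 FPKM in watered Hanhui3 (0.58, adjusted p = 6.4e-09). In Huhan7B it averaged 52.3 FPKM under drought and 60.7 FPKM in water (-0.21, adjusted p = 0.00023), opposite in direction to ASN1. Of the 5 models annotated as asparaginases, which release ammonium from asparagine, 3 fell in Hanyou73 and 1 rose. OsASNase2 (Os04g0650700) averaged 501 FPKM in droughted and 2025 FPKM in watered Hanyou73 (log2 difference -2.01, adjusted p = 5.6e-15), 641 FPKM in droughted and 470 FPKM in watered Hanhui3 (0.45, adjusted p = 9.6e-07) and 586 FPKM in droughted and 736 FPKM in watered Huhan7B (-0.33, adjusted p = 2.1e-05). OsASNase1 (Os03g0597600) averaged 2.42 FPKM in droughted and 29.8 FPKM in watered Hanyou73 (-3.21, adjusted p = 1.7e-09) and was not called in either parent. The model with the next ID to OsASNase2, Os04g0650750, averaged 272 FPKM in droughted and 951 FPKM in watered Hanyou73 (-1.78, adjusted p = 0.00068). It was also called lower in Huhan7B (-1.01, adjusted p = 0.038) and was not called in Hanhui3 (0.59, adjusted p = 0.21).

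Among 10 tested nitrate transporter genes, 4 rose and 5 fell in Hanyou73, 5 rose and 1 fell in Hanhui3, and 3 rose and 4 fell in Huhan7B. The 4 that rose in Hanyou73 and the counts in Huhan7B were near the shares of all genes, 45% higher in Hanyou73 and 21.2% higher and 32.1% lower in Huhan7B. OsNAR2.2 (Os04g0480200), a partner protein of high-affinity nitrate transporters, averaged 1.00 FPKM in droughted and 7.99 FPKM in watered Huhan7B (log2 difference -2.19, adjusted p = 8.1e-07). NRT2.4 (Os01g0547600) averaged 0.343 FPKM in droughted and 4.76 FPKM in watered Hanyou73 (-2.09, adjusted p = 5.9e-09), and Os01g0556650 averaged 21.7 FPKM in droughted and 80.3 FPKM in watered Hanyou73 (-1.84, adjusted p = 9.9e-12). NRT2.4 was also called lower in Huhan7B (-0.62, adjusted p = 0.0028). Os01g0556650 was also called lower in Hanhui3 (-0.28, adjusted p = 0.0086) and in Huhan7B (-0.49, adjusted p = 8.7e-05). A neighbouring ID with the same transporter annotation, Os01g0556700, was called higher in Hanhui3 (0.85, adjusted p = 0.00026). It was called lower in Hanyou73 (-0.50, adjusted p = 0.0094) and in Huhan7B (-0.66, adjusted p = 0.0020). Reads shared between these models could have been split. Os01g0103100 was called higher in all 3 genotypes, with 7.33 FPKM in droughted and 1.92 FPKM in watered Hanyou73 (1.52, adjusted p = 2.2e-07). Of 5 tested aspartate aminotransferases 1 rose and 2 fell in Hanyou73, 4 rose in Hanhui3, and 1 rose and 3 fell in Huhan7B. The PII protein gene rose in Hanyou73 and Hanhui3 (0.31 and 0.65 log2) and fell in Huhan7B (-0.73).

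**Figure D5:**
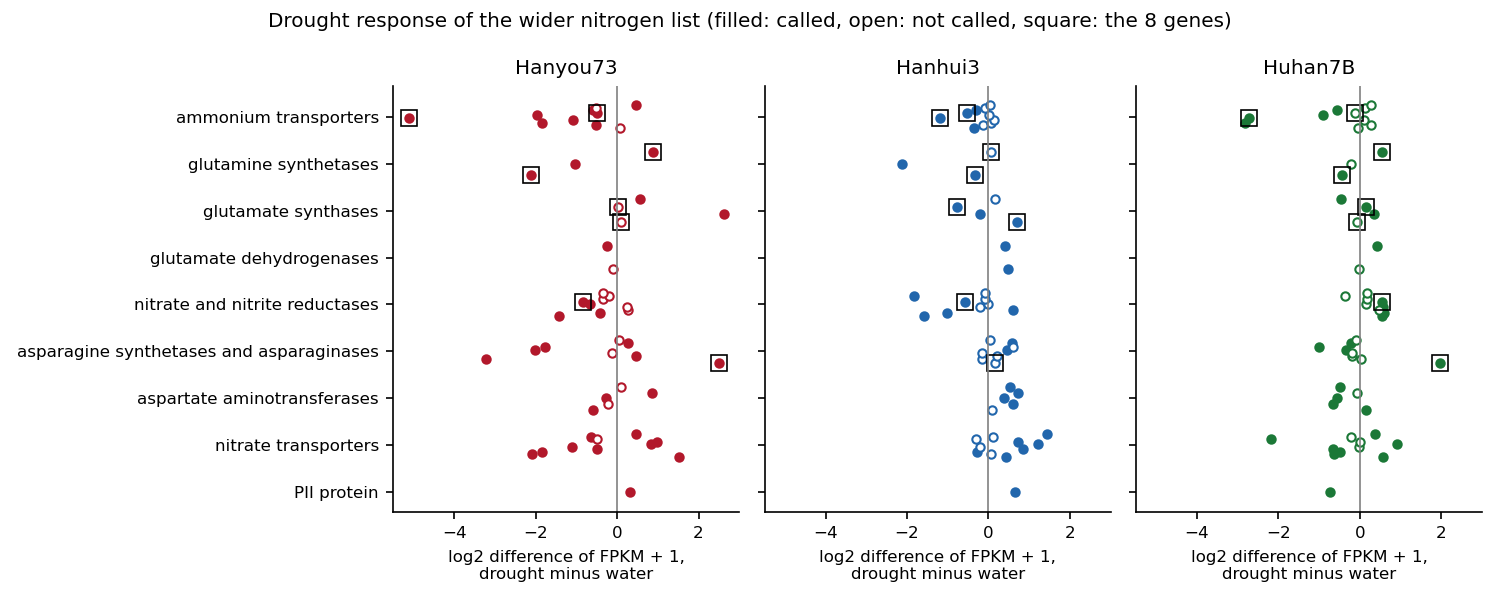
Log2 difference of FPKM + 1, drought minus water (x axis, 1 scale for all panels), of the 52 tested genes of the wider nitrogen list, 1 point per gene, by class (rows) and genotype (panels). Filled points are called, open points are not, and squares mark the 8 genes. Called ammonium transporters lie below 0 with 1 exception, in Hanyou73, and called nitrate and nitrite reductases lie below 0 in Hanyou73 and above 0 in Huhan7B.

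The genes whose log2(FPKM + 1) ran most like that of each member were taken among tested genes with a mean of at least 5 FPKM. Over the 18 libraries, which share the 6 groups, Pearson's r was 0.991 between AMT3-2 and the phosphatidylinositol 4-kinase gamma 4 gene Os06g0340600 and 0.990 between AMT3-2 and the heat stress factor gene HSFA4D. It was 0.988 between OsGS1 and pdc2 and 0.985 between OsGS1 and OsBIDK1. For GS2 it was 0.996 with PTAC16 and 0.996 with Os10g0492300. For OsNR1 it was 0.983 with ONAC139 and 0.969 with OsVQ25. For NADH-GOGAT1 it was 0.991 with the agmatine deiminase gene OsAIH and 0.986 with Os06g0136000, and for Fd-GOGAT it was 0.968 with 1-MMP and 0.959 with Os03g0219400. For ASN1 it was 0.986 with the late embryogenesis abundant protein gene OsLEA3-1 and 0.962 with YSL2. AMT1-1 had the lowest likeness, with r of 0.890 to Os01g0681000 and 0.888 to OsZHD5.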

How the data were processed

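Polyadenylated RNA of pooled flag leaves was sequenced from strand-specific paired-end libraries, 3 for each of 3 genotypes with and without drought, per the labels. The submitters' processing notes name the build IRGSP-1.0 and the tools DESeq2, RSEM, StringTie, HISAT2 and fastp. Versions, settings and the strand setting of the counting are not given in the sources used here. The authors deposited FPKM. This unit was inferred from the values (2 decimals, unequal sums per library, steps that shrink with gene length), since the header names none. Columns were matched to samples by name, and 0 sample columns were unused. Counts were not analysed here. Depth was estimated from the steps of low values, with 310 bases taken off each length: 82.1% to 87.1% of low values were then whole fragment numbers within 0.1.

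Genes with an FPKM of at least 1 in at least 3 libraries were tested, without 1017 structural RNA genes. A model of the 6 group means was fitted to log2(FPKM + 1) by limma 3.58.1 (R 4.3.3), with the variance trended on level, and 15 two-sided contrasts were adjusted by Benjamini-Hochberg over all 22590 genes. The fit was tested on simulated data. Adjusted p-values in the text are from this fit or from an alternative named beside them.

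The 8 genes, the lists, the markers and the tests were chosen with earlier results of these data known. The wider list was matched on product names, and 39 matches to other functions were dropped after the matches had been read. Its named genes are those called with a log2 difference of at least 1 in size in any genotype, at most 4 per class by size. Os06g0265000, Os07g0676200, Os02g0765900, Os02g0765925, Os11g0105350, Os01g0556700 and the PII protein gene are named outside this rule. The 2 genes most like each member are those with the highest Pearson correlation over the libraries. Gene names come from the deposited annotation, except AMT3-2, AMT1-1, GS2, Fd-GOGAT, NADH-GOGAT1 and NADH-GOGAT2. PTAC16 is shortened from the product name. Same-numbered replicates were not paired: over 45 pairs of same-numbered libraries from different groups, deviations correlated at -0.087 to 0.091, and 0 exceeded 0.1. Alternatives were pseudocounts of 0.1 and 5, an FPKM minimum of 5, median-ratio scaling, a fit without the trend, only the groups of a contrast, a replicate block, and leaving out each library.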

Additional observations from a re-analysis of the deposited data

Results flagged for a closer look

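For 25 combinations of gene and comparison, the test of the difference between drought responses passed the threshold, with 49.7% to 62.6% of all tested genes passing the same tests. Values are differences of log2 responses from the limma fit, 3 libraries per group. For Hanyou73 minus the parental mean response they were -3.16 for AMT3-2, -1.74 for OsGS1, -0.83 for OsNR1, -0.22 for NADH-GOGAT1, 0.32 for Fd-GOGAT, 0.57 for GS2 and 1.43 for ASN1. For Hanyou73 minus Hanhui3 they were -3.93 for AMT3-2, -1.79 for OsGS1, -0.61 for NADH-GOGAT1, 0.78 for Fd-GOGAT, 0.81 for GS2 and 2.34 for ASN1. For Hanyou73 minus Huhan7B they were -2.38 for AMT3-2, -1.69 for OsGS1, -1.39 for OsNR1, -0.14 for Fd-GOGAT, 0.33 for GS2 and 0.51 for ASN1. For Hanhui3 minus Huhan7B they were 1.54 for AMT3-2, 0.77 for NADH-GOGAT1, -0.49 for GS2, -0.92 for Fd-GOGAT, -1.13 for OsNR1 and -1.82 for ASN1. The 4 comparisons share libraries, so these values are not independent of each other. Some of the calls did not hold in an alternative. With median-ratio scaling, Hanyou73 minus Huhan7B became 0.03 for GS2 (adjusted p = 0.40) and 0.24 for ASN1 (adjusted p = 0.17). Without Hanyou73 water replicate 2, NADH-GOGAT1 in Hanyou73 minus the parental mean became -0.17 (adjusted p = 0.052).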

How the results depend on the processing

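Over 120 values (8 genes in 15 comparisons) and 26 alternatives, of which 18 left out 1 library each, 3053 of 3120 alternative values kept their direction and their side of the threshold. Of the others, 8 lost the call, 42 gained it and 17 changed sign, none of them among the 96 called values. Counts of genes called stayed between 5 and 8 per comparison and moved by at most 2. With median-ratio scaling the sign changed for AMT1-1 in Hanyou73 minus Hanhui3 response (-0.0157), OsGS1 in Hanhui3 minus Huhan7B response (-0.14), GS2 in Hanhui3 drought (-0.0643), NADH-GOGAT1 in Hanyou73 drought (-0.0808), Huhan7B drought (0.0295) and Hanyou73 minus Huhan7B response (-0.11), Fd-GOGAT in Hanyou73 drought (-0.17) and OsNR1 in droughted Hanyou73 minus the mean of the parents (-0.29). That last value was -0.0022 with a pseudocount of 5. Scaling moved the median of all genes by over 0.1 in 10 of the 15 comparisons, by -0.29 at most. Leaving out 1 library gave ranges that crossed 0 for AMT1-1 in Hanyou73 minus Hanhui3 response (-0.0734 to 0.13), OsGS1 in droughted Hanyou73 minus Hanhui3 (-0.0364 to 0.0051), Fd-GOGAT in Hanyou73 drought (-0.0088 to 0.0334) and OsNR1 in droughted Hanyou73 minus the mean of the parents (-0.0315 to 0.0539). The cause was not tested. A replicate block, used although the numbers do not pair the libraries, left each count of called genes as it was, for example 6 in Hanyou73 drought. ASN1 is limited by depth, with at most 177 estimated fragments in a library.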
